A study of Mus musculus with 8 samples.

Results

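The anaphase-promoting complex, or cyclosome (APC/C), is the ubiquitin ligase whose activity ends metaphase. The genes described here are its 10 core subunits for which the expression table of mouse oocytes was read by gene symbol, Anapc1, Anapc2, Anapc4, Anapc5, Anapc7, Anapc10, Anapc11, Cdc16, Cdc23 and Cdc27. All 10 were found among the 25574 genes of the table, and all 10 were among the 14292 genes that were tested, those whose mean in NP or in P exceeded 0.1 FPKM. FPKM is the number of fragments per kilobase of gene model, scaled to the size of the library. Levels are compared between genes on this scale, with the limit that the gene model behind it could differ from the principal transcript. It was shorter for Anapc10 (2801 bp used against 4591) and close to it for Anapc5 (2750 bp against 2760). It was much longer for Anapc1 (16714 bp against 8942) and Cdc23 (9500 bp against 4133).

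The study separated polysome-bound (P) from non-polysomal (NP) mRNAs of mouse oocytes at nuclear envelope breakdown (NEBD), the first visible sign that meiosis has resumed. In each dataset 4 biological replicates were sequenced, NP1 to NP4 and P1 to P4, and a library derives from a pool of 200 oocytes. The CD1 females were 8 weeks old and received 5 IU of pregnant mare serum gonadotropin 46 h before collection, and their fully grown oocytes were collected in 100 µM IBMX, an inhibitor of meiotic resumption, freed of surrounding cells and cultured without it for 180 min. All libraries, NP and P alike, come from oocytes exposed to 0.1 mg/mL cycloheximide for 10 min, an elongation inhibitor that holds ribosomes on mRNA, and no untreated or total RNA library was used here. The lysates ran through 10 to 50% sucrose gradients. The NP pool covers the 40S, 60S and monosome peaks and the P pool the heavier fractions. The top fraction was in neither pool, and the paper could not fully exclude that it held some stored ribonucleoprotein particles. Nor could the paper exclude that heavy stored particles sedimented with the polysomes. Both pools were taken from the same gradients, so NP and P libraries are not from separate oocytes. RNA was freed of ribosomal RNA, primed with both oligo(dT) and random hexamers and amplified as whole cDNA before the library preparation.

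The APC/C attaches ubiquitin chains to cyclin B and to securin, the inhibitor of separase, and thereby sends both to the proteasome. Its platform subunits carry an arm built of tetratricopeptide repeat proteins, which bind the coactivators, and a catalytic module in which a cullin and a RING protein work with the E2 enzymes that supply ubiquitin. In the mouse oocyte, which does not transcribe at this stage, the complex with the coactivator Cdh1 (encoded by Fzr1) restrains entry into meiosis I, and with Cdc20 it later drives the exit from it. The comparison of P with NP asks which of the stored mRNAs of this complex lay more in the polysomal fractions at NEBD.

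Since translation of stored oocyte mRNAs is known to depend on elements at their 3′ ends, these ends are shown first. Cytoplasmic polyadenylation elements, the binding sites of CPEB proteins, were searched as TTTTAT or TTTTAAT and the polyadenylation signal as AATAAA or ATTAAA. The search covered the last 100 bases (sense strand) of GENCODE principal transcripts (GRCm38) whose 3′ UTR was at least that long. Overlaps were allowed, and other ends of a gene were not searched. The element letters were found in 0 of the 10 core subunits, in 4 of the 15 other pathway genes with such a window, and in 20.8% of the 10993 genes tested that have such a window. The signal letters were found in 9 of the 10 core subunits (all except Anapc7), in 14 of the 15 pathway genes and in 82.7% of the 10993 genes. The transcript ends of 4 core subunits are printed with the signal in capitals, followed by windows from the 4 pathway genes that hold the element, with element and signal in capitals, so that both kinds of 3′ end can be compared.
Anapc1: tgaccccAATAAActcattatattgctaaa
Anapc4: cacagagATTAAAggtgtgagccactatca
Anapc2: gtggccATTAAAaggaactcttggtccttc
Anapc11: tatgtaaaccaAATAAAccctttcctcccc
Bub1b: tttcactgtgtaTTTTATAATAAAatagtt
Mad2l1: tgtAATAAAgaactcttaTTTTAATgtttt
Fbxo5: aatgtgagttttTTTTATatctgtgaatac
Gmnn: atTTTTAATccgTTTTATgtaaatagcatt

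On GRCm38 these stretches lie at chr2:128610104-128610133 (minus strand, Anapc1), chr5:52867768-52867797 (plus, Anapc4), chr2:25285886-25285915 (plus, Anapc2) and chr11:120608169-120608198 (plus, Anapc11), each being the last 30 bases of the transcript. The element-bearing windows lie at chr2:118641553-118641582 (plus, Bub1b), chr6:66540962-66540991 (plus, Mad2l1), chr10:5799226-5799255 (minus, Fbxo5) and chr13:24751913-24751942 (minus, Gmnn), all within 3′ UTRs. In Bub1b the element runs directly into the signal, in Mad2l1 it follows the signal, and Gmnn holds both forms of the element. A match of letters describes the sequence, and the absence of a match says only that these letters are not in this window.

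None of the 10 core subunit mRNAs differed between P and NP in limma at an adjusted p below 0.1, where 3 of all 14292 genes tested (0.021%) did. None had an unadjusted p below 0.05 either, against 9.95% of all genes. No core subunit had all 4 NP libraries above all 4 P libraries (5.92% of all genes) or all 4 P libraries above all 4 NP libraries (0.357% of all genes). By the fitted log2 fold change of P over NP, 5 subunits lay above 0 (Anapc1, Anapc2, Anapc10, Cdc23, Cdc27) and 5 below it (Anapc4, Anapc5, Anapc7, Anapc11, Cdc16). Their median log2 fold change was −0.07 and that of all genes tested was −0.39, and 7 of the 10 lay above the latter. The split of 5 and 5 depended on how libraries were scaled, since 6 subunits lay above 0 after quantile normalization and 9 of 10, all but Cdc16, when each library was scaled to one median FPKM. Of all 14292 genes tested, 4083 lay above 0 with FPKM as deposited, and 6996 and 6980 after these 2 scalings. An FPKM is a share of its own library, so these values compare the make-up of the pools and do not give the fraction of an mRNA's copies on polysomes, and in pooled oocytes fewer cells with an mRNA and less of it per cell cannot be told apart.

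**Figure D1:**
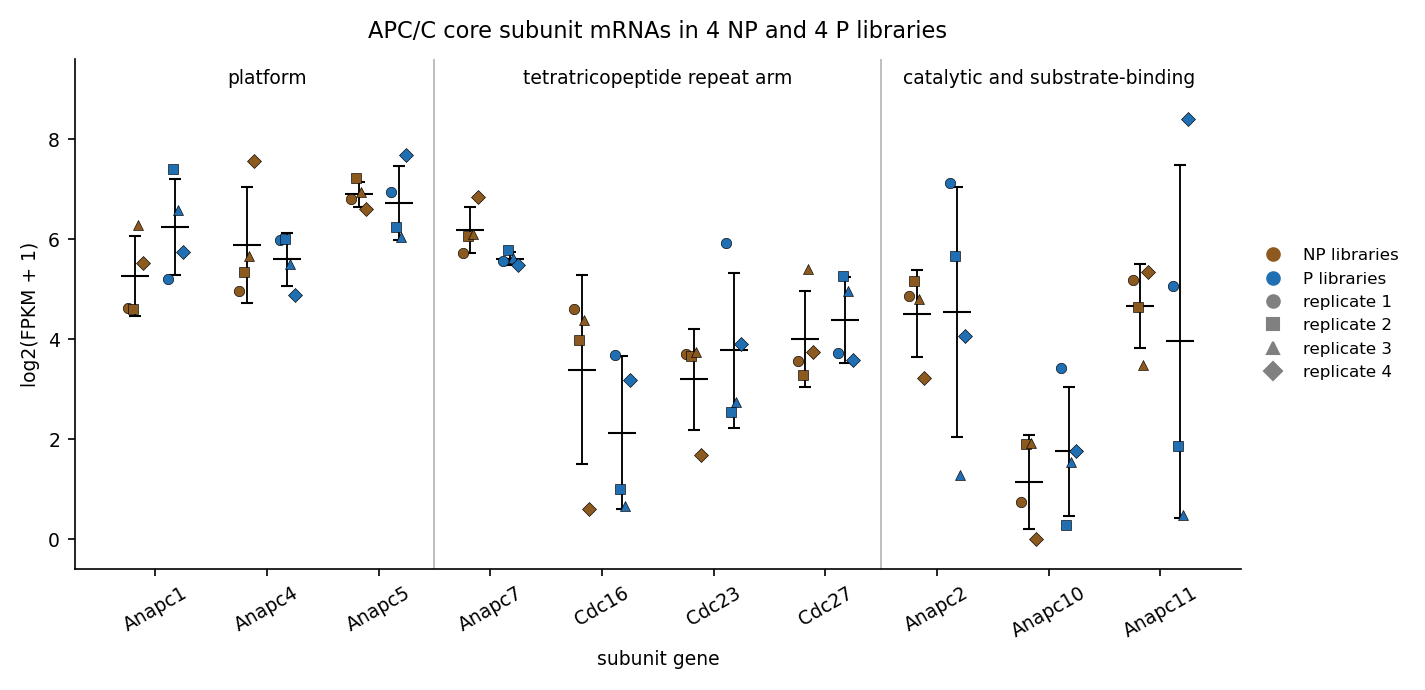
The vertical axis gives the level as log2(FPKM + 1) of each core subunit mRNA (horizontal axis) in the 4 NP (brown) and 4 P (blue) libraries, marker shapes give the replicate number, and bars give the mean ± SD (n = 4). The datasets overlapped for all 10 genes, and the widest spread was that of Anapc11 in P, from 0.4004 FPKM in P3 to 338 FPKM in P4.

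Of the platform subunits, Anapc5, a platform protein that also contains tetratricopeptide repeats, had the highest mean level of the 10 in both datasets on the deposited scale, 119 ± 21.6 FPKM in NP and 116 ± 63.6 FPKM in P (SD, n = 4). Its single values were 111, 148, 122 and 96.8 FPKM in NP1 to NP4 and 122, 74.3, 65.0 and 204 FPKM in P1 to P4. P4 was the highest library and P3 the lowest, with all 4 NP libraries between them. The log2 fold change was −0.17 (SE 0.56, 95% interval −1.36 to 1.03, limma adjusted p = 0.905). The gene lies on chromosome 5 at 122787469 to 122821339 on the minus strand, 343 kb from Anapc7.

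Anapc1, the largest subunit and the scaffold of the platform, was measured at 23.8, 23.4, 76.7 and 44.8 FPKM in NP1 to NP4 and at 36.1, 169, 94.9 and 52.6 FPKM in P1 to P4. P2 and P3 were above every NP library, whereas P1 and P4 lay within the NP range. With 42.2 ± 25.1 FPKM in NP and 88.1 ± 59.2 FPKM in P (SD, n = 4), it had the highest log2 fold change of the 10, 0.98 (SE 0.67, 95% interval −0.46 to 2.41), with an unadjusted p of 0.166 and an adjusted p of 0.627 in limma. Scaled to one median FPKM per library, its log2 fold change was 1.86 with an unadjusted p of 0.0188 in limma and an adjusted p of 0.621, where 7.89% of all genes had an unadjusted p below 0.05. With FPKM as deposited, it was 0.59 without P2. The gene spans 128610104 to 128687391 on the minus strand of chromosome 2, and its principal transcript of 8942 bases in 48 exons is the longest of the 10.

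Anapc4, a further platform protein, was listed at 30.1, 39.5, 50.0 and 187 FPKM in NP1 to NP4 and at 62.6, 63.5, 44.4 and 28.6 FPKM in P1 to P4. NP4 alone held 61.0% of the FPKM summed over the NP libraries, and the other 3 NP libraries lay within the range of P. The log2 fold change was −0.28 (SE 0.67, 95% interval −1.72 to 1.16, limma adjusted p = 0.865), and it turned to 0.28 without NP4. The gene lies on the plus strand of chromosome 5 at 52834015 to 52867797.

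Of the tetratricopeptide repeat arm, Anapc7 came closest to a separation of the datasets. This subunit stands at the top of the arm. It had 51.8, 66.2, 67.7 and 113 FPKM in NP1 to NP4 and 46.0, 54.4, 47.9 and 43.8 FPKM in P1 to P4. The only crossing was P2 above NP1, so that without either of these libraries all NP values exceeded all P values, as they did for 8.35% of all genes without NP1 and for 8.49% without P2. The P libraries were within a factor of 1.24 of each other, the smallest spread of any core subunit in P. The log2 fold change was −0.57 (SE 0.54, 95% interval −1.74 to 0.60, limma adjusted p = 0.688), close to the median of −0.39 of all genes, and it was 0.31 when each library was scaled to one median FPKM. The gene lies on the plus strand of chromosome 5 at 122421693 to 122444912.

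Cdc16, a repeat protein that forms a dimer within the arm, had the lowest log2 fold change of the 10, −1.26 (SE 1.10, 95% interval −3.61 to 1.09, limma adjusted p = 0.667). It was measured at 23.4, 14.9, 19.7 and 0.509 FPKM in NP1 to NP4 and at 11.9, 1.01, 0.580 and 8.06 FPKM in P1 to P4. NP1, NP2 and NP3 were above all P libraries, while NP4 was below all of them. Without NP4 the log2 fold change was −2.19 with an unadjusted p of 0.0457 in limma and an adjusted p of 0.417, and Cdc16 then did not overlap between the datasets. Without NP4, 11.8% of all genes had an unadjusted p below 0.05 and 10.3% had all NP above all P libraries, so 1 of 10 subunits is near these shares. The lowest values rest on few counting units, as the FPKM steps of this gene correspond to 12 units in NP4, 10 in P2 and 8 in P3 against 446 in NP3. The gene lies on the plus strand of chromosome 8 at 13757676 to 13781938.

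Cdc27, the arm subunit that receives the coactivator's tail, was listed at 10.8, 8.75, 41.3 and 12.4 FPKM in NP1 to NP4 and at 12.2, 37.4, 30.1 and 10.9 FPKM in P1 to P4. In both datasets the values fell into a low and a high range, with NP3, P2 and P3 high. Its log2 fold change was 0.38 (SE 0.74, 95% interval −1.22 to 1.98, limma adjusted p = 0.830). The same 3 libraries were also the highest for Anapc1, and these 2 genes have the longest principal transcripts of the 10 (5425 bases for Cdc27). Cdc27 lies on the minus strand of chromosome 11 at 104502745 to 104550620.

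The values of Cdc23, another arm subunit, cannot be assigned to its own mRNA alone. Its exons on chromosome 18 (34630951 to 34651735, minus strand) share 1271 bases, or 13.4% of its merged exon length, with the opposite-strand gene Kif20a, which was named here for its position and encodes a mitotic kinesin. The Nextera kit does not mark the strand, so reads from the shared bases cannot be told apart. Cdc23 was listed at 12.0, 11.7, 12.4 and 2.22 FPKM in NP1 to NP4 and at 60.0, 4.83, 5.68 and 13.9 FPKM in P1 to P4. Kif20a was listed at 130, 75.4, 118 and 100 FPKM and at 237, 31.2, 49.9 and 108 FPKM in the same libraries. In P both genes had the order P1, P4, P3, P2. In NP the orders differed, with NP3, NP1, NP2, NP4 for Cdc23 and NP1, NP3, NP4, NP2 for Kif20a. If Kif20a were evenly covered, its reads would add 17.4, 10.1, 15.8 and 13.4 FPKM to the Cdc23 model in NP1 to NP4 and 31.7, 4.18, 6.68 and 14.4 FPKM in P1 to P4, which exceeds the value listed for Cdc23 in 5 of the 8 libraries. How evenly Kif20a was covered was not tested. As listed, Cdc23 had a log2 fold change of 0.58 (SE 0.91, 95% interval −1.37 to 2.53, limma adjusted p = 0.790), which was −0.14 without P1. No other core subunit shares exon bases with another annotated gene, and without Cdc23 the median log2 fold change of the remaining 9 was −0.17.

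By the factor between the highest and the lowest library, the catalytic and substrate-binding subunits had the widest ranges within P. For Anapc10 this factor, 43.7, rests on 2 counting units in P2. Anapc11, the RING protein that positions the E2 enzyme, had 35.5, 24.0, 10.2 and 39.6 FPKM in NP1 to NP4 and 32.2, 2.65, 0.4004 and 338 FPKM in P1 to P4. P4 was the highest of the 8 libraries and P3 the lowest, a factor of 843 between replicates of the same dataset. In counting units the gene had 4571 in P4 and 9 in P3. P4 held 90.5% of the FPKM summed over P, so the mean of 93.2 ± 164 FPKM in P (SD, n = 4) describes that library, and the ratio of means of 3.41 became 0.430 without it. On the log2 scale the fold change was −0.71 (SE 1.34, 95% interval −3.58 to 2.15, limma adjusted p = 0.823), and it ranged from −2.20 without P4 to 0.44 without P3. Anapc11 lies on the plus strand of chromosome 11 at 120598421 to 120608198.

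Anapc2, the cullin subunit on which Anapc11 sits, was measured at 27.9, 34.6, 27.0 and 8.37 FPKM in NP1 to NP4 and at 139, 49.8, 1.44 and 15.8 FPKM in P1 to P4. P1 and P2 were above all NP libraries and P3 below all of them. Its log2 fold change was 0.03 (SE 1.05, 95% interval −2.23 to 2.28, limma adjusted p = 0.992), an interval that spans more than a 4-fold change in either direction. The gene lies on the plus strand of chromosome 2 at 25272478 to 25285915.

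Both proteins form the catalytic core, and their ratio within a library depends on the scaling between libraries only through the FPKM added to each. The log2 ratio of Anapc11 to Anapc2, with 1 FPKM added, was 0.34, −0.51, −1.32 and 2.12 in NP1 to NP4 and −2.07, −3.80, −0.80 and 4.33 in P1 to P4. Replicate 4 was the highest in both datasets. The means of 0.16 ± 1.47 in NP and −0.59 ± 3.50 in P (SD, n = 4) differed by −0.74 (exact permutation test over 70 assignments, 2-sided, p = 0.686, and 0.686 after Benjamini-Hochberg adjustment over the 2 ratios tested), and by −1.04 with 0.1 FPKM added.

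Anapc10, which helps to bind the destruction box of substrates, had the lowest mean level of the 10 in both datasets. It was listed at 0.671, 2.75, 2.79 and 0 FPKM in NP1 to NP4 and at 9.72, 0.223, 1.93 and 2.40 FPKM in P1 to P4. P1 was the only library above 3 FPKM. These values rest on 6, 10, 57 and 0 counting units in NP and on 128, 2, 24 and 18 in P, so that several of them are a few units from 0. The log2 fold change was 0.61 (SE 0.84, 95% interval −1.20 to 2.42, limma adjusted p = 0.764), and 0.06 without P1. Anapc10 lies on the plus strand of chromosome 8 at 79711820 to 79777321.

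**Figure D2:**
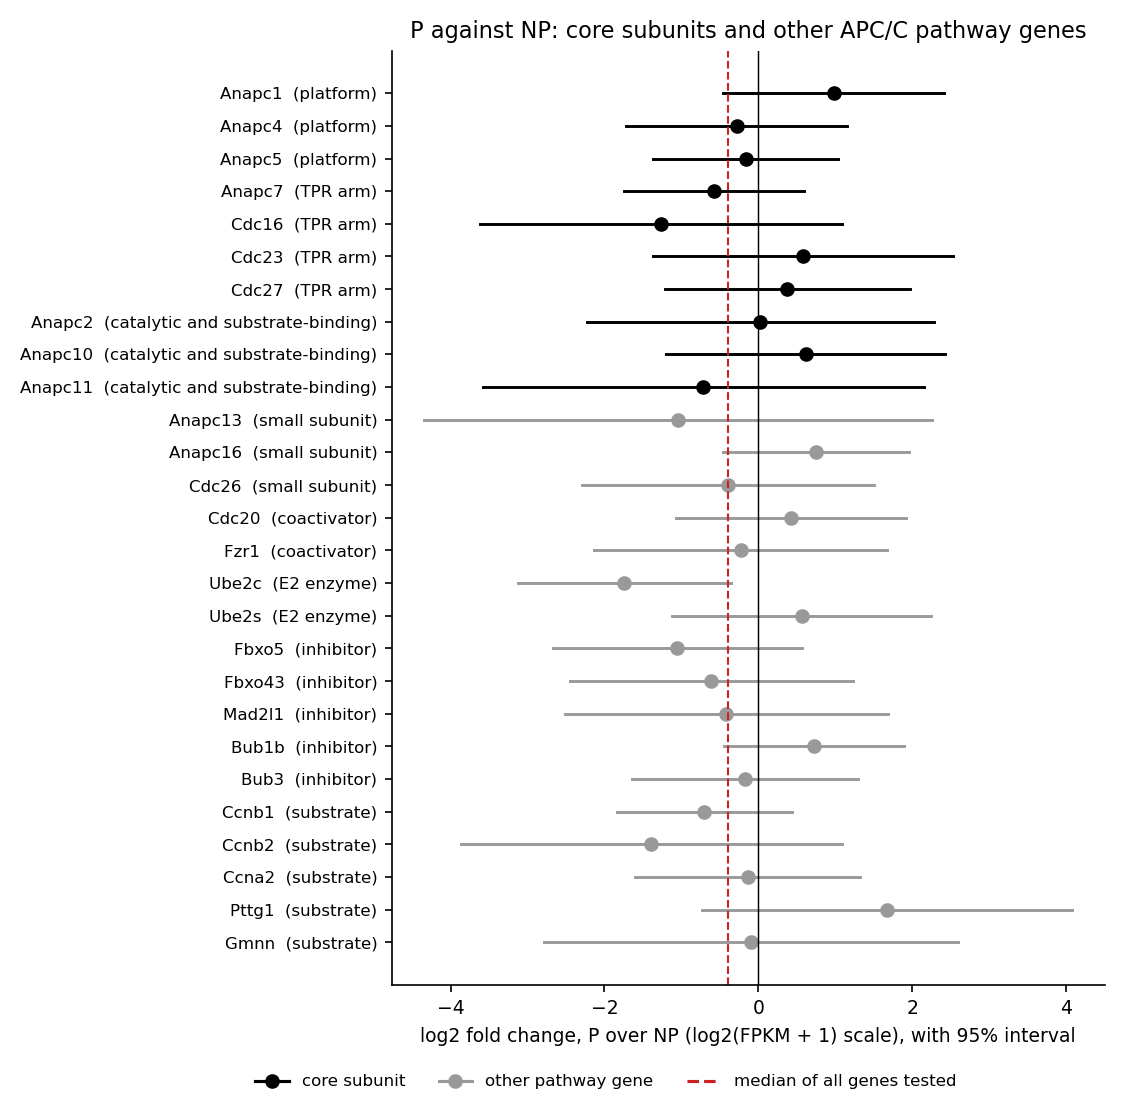
The horizontal axis gives the log2 fold change of P over NP on the log2(FPKM + 1) scale from limma (points) with its 95% interval (lines), for the 10 core subunits (black) and 17 other genes of the pathway (grey), listed on the vertical axis with their role (TPR, tetratricopeptide repeat). The dashed line is the median of all genes tested, −0.39, and every interval except that of Ube2c includes 0.

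The order of the mean levels in NP was Anapc5, Anapc4, Anapc7, Anapc1, Anapc11, Anapc2, Cdc27, Cdc16, Cdc23 and Anapc10, and the ranges of all neighbours in this order overlapped. In P the order was Anapc5, Anapc11, Anapc1, Anapc2, Anapc4, Anapc7, Cdc27, Cdc23, Cdc16 and Anapc10, where only Anapc7 and Cdc27 had ranges that did not overlap. Anapc5 ranked at the 93.5th percentile of the mean levels of the genes tested in NP and at the 94.0th in P, and Anapc10 at the 30.2nd and the 48.4th. This order depends on the gene length behind the FPKM. As a choice made after seeing the data, the means were rescaled by the length behind the FPKM over the principal transcript length. This assigns every counting unit of the gene model to the principal transcript, and units outside its exons were not removed. So rescaled, Anapc7 led in NP with 129.6 against 118.8 for Anapc5. In P, Anapc1 led with 164.6 against 146 for Anapc11 and 115.9 for Anapc5. Anapc10 was the lowest in both datasets. On the deposited scale, subunits that share a complex were listed with mean levels from 1.55 to 119 FPKM in NP and from 3.57 to 116 FPKM in P.

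The 10 mRNAs summed to 327, 374, 430 and 505 FPKM in NP1 to NP4 (409 ± 76.7, SD, n = 4) and to 532, 457, 292 and 718 FPKM in P1 to P4 (500 ± 176, SD, n = 4). Anapc5 was the leading subunit in NP1, NP2 and NP3 with 28.3 to 39.6% of the sum, and Anapc4 led in NP4 with 37.0%. In P the leading subunit was Anapc2 in P1 (26.1%), Anapc1 in P2 (36.9%) and P3 (32.5%) and Anapc11 in P4 (47.0%). Anapc5 was the second in each of the 4 P libraries.

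**Figure D3:**
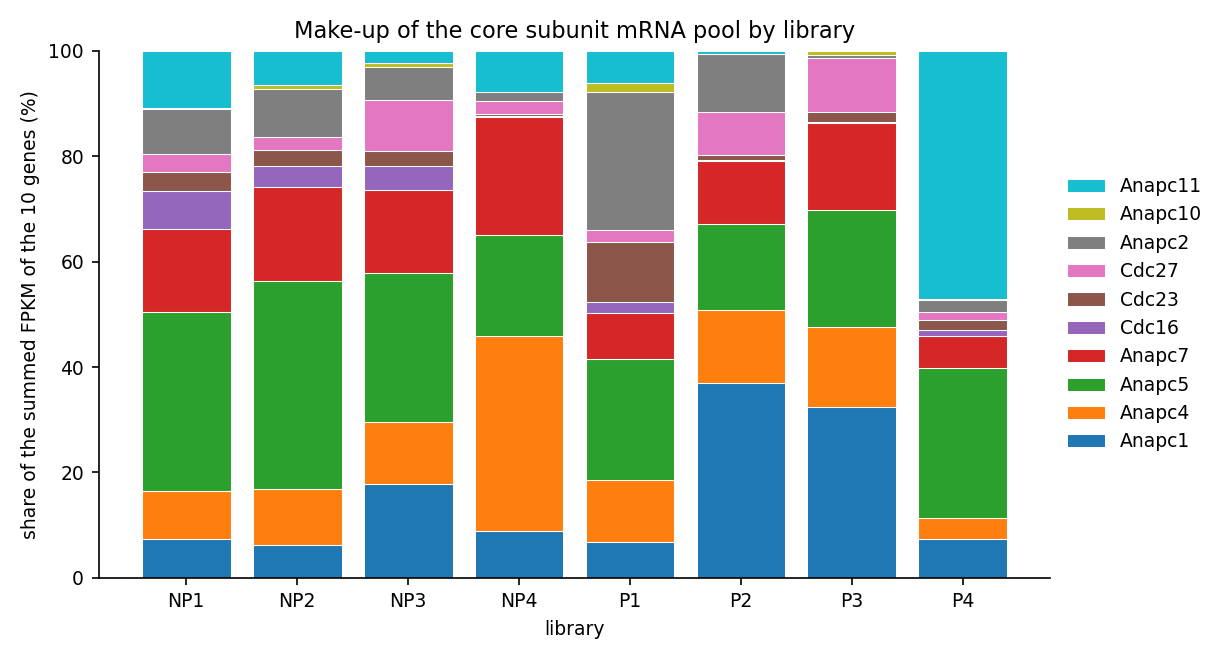
Bars give the share (%) of the summed FPKM of the 10 core subunits that each gene held in each library (horizontal axis), with colours for genes. Anapc5 led in NP1 to NP3, while a different subunit led in P1, in P4 and in the pair P2 and P3.

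Libraries of the same dataset stood apart from each other, in these genes and beyond them. P3 was the lowest of its dataset for 4 of the 10 subunits and the highest for none, and NP4 was the lowest of its dataset for 5 and the highest for 3. Some of these differences go with transcript length. Measured as the median log2 difference of a library from the other 3 of its dataset, over genes averaging more than 1 FPKM there, NP3 was at −0.89 for transcripts up to 1 kb and at 0.70 above 4 kb. P3 was at −1.18 and 0.32 in the same classes, and P4 went the opposite way, at 0.72 and −0.56. The long mRNAs of Anapc1 and Cdc27 were high in NP3 and P3, where long transcripts as a class were high, but also in P2, where that class was at −0.15. The part of transcript length in the values of single subunits was not tested. The numbers of counting units to which libraries were scaled, recovered from the FPKM steps, ranged from 1299387 to 7594662. Above 0 were 9139 to 11339 genes in the P libraries against 11703 to 13753 in the NP libraries. All 10 oocyte markers looked up (Gdf9 and Zp3 among them) were detected in both datasets, with a summed level of 5651 to 11868 FPKM in NP and 7818 to 36774 FPKM in P. Of 10 granulosa and cumulus markers 6 were at 0 in every library of NP and likewise 6 in P, and their sum, mostly Cyp19a1, was 6.07 to 75.4 FPKM in NP and 0.190 to 62.6 FPKM in P. Of 4 immune and blood markers, 3 were at 0 throughout NP and all 4 throughout P. The exception was the macrophage marker Cd68, at 35.9, 0, 0.984 and 7.33 FPKM in NP1 to NP4, and its part in the NP values was not tested.

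**Figure D4:**
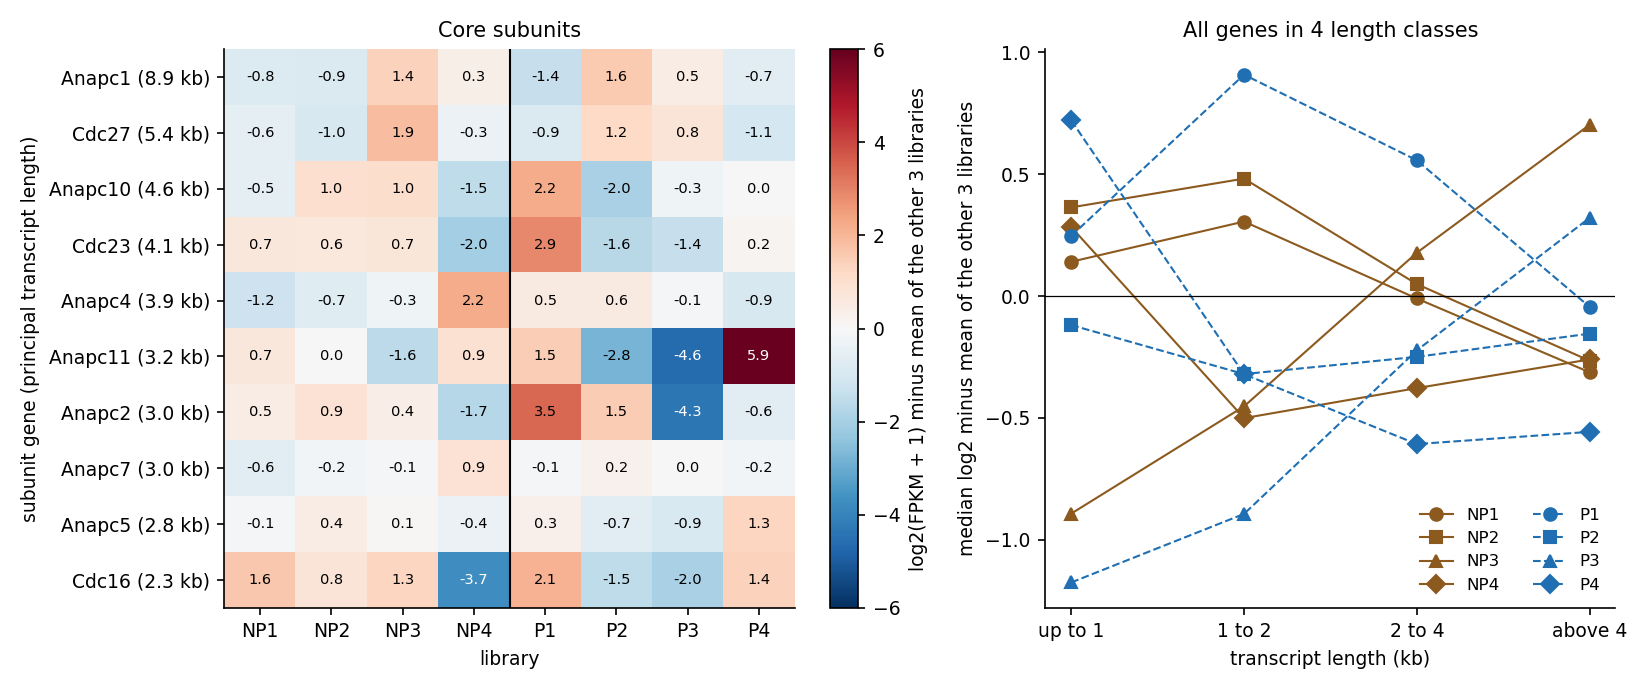
Left, log2(FPKM + 1) of each core subunit in each library minus the mean of the other 3 libraries of its dataset, with genes ordered by principal transcript length (colour and number, log2 units). Right, the median of the same difference over all genes in 4 transcript length classes, 1 line per library, in which NP3 and P3 rose with length, from −0.89 to 0.70 and from −1.18 to 0.32.

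The other genes of the pathway were taken from a list of 18, of which 17 were in the table by symbol (Anapc15 was not matched). None of the 17 passed the adjusted threshold in limma, 5 had a log2 fold change above 0 and 12 below it, and their median was −0.23. Of all 14292 genes tested, 4083 lay above 0 and 10209 below it, with a median of −0.39, so the 17 are near the share of all genes. After quantile normalization 9 of the 17 lay above 0 (6996 of all genes), and after scaling each library to one median FPKM 13 of them did (6980 of all genes). The only gene of the 17 with an unadjusted p below 0.05 was Ube2c, the E2 enzyme that places the first ubiquitins on APC/C substrates. It was measured at 170, 59.5, 82.8 and 187 FPKM in NP1 to NP4 and at 43.5, 55.7, 13.7 and 34.0 FPKM in P1 to P4, with all NP libraries above all P libraries. The log2 fold change was −1.74 (SE 0.64, unadjusted p = 0.0171 and adjusted p = 0.420 in limma). It was −1.47 after quantile normalization (unadjusted p = 0.0279 in limma) and −0.87 with each library scaled to one median FPKM (unadjusted p = 0.209 in limma), and in both cases the datasets overlapped. With FPKM as deposited, 9.95% of all genes had an unadjusted p below 0.05 in limma and 5.92% had all NP above all P libraries. The 1 gene of 17 is not above either share. With the median scaling, 2 of the 17, not Ube2c, had such a p (7.89% of all genes). In that setting 2 of the 17 had all P above all NP libraries, against 392 of 14292 genes, which is a smaller share. With FPKM as deposited, 0 of the 17 did. Ube2s, the E2 enzyme that extends the chains, was at 262 ± 222 FPKM in NP and 411 ± 399 FPKM in P (SD, n = 4), a log2 fold change of 0.56 (SE 0.78).

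Neither coactivator had an unadjusted p below 0.05. Cdc20, the coactivator of anaphase onset, was at 77.1, 46.1, 17.4 and 16.7 FPKM in NP1 to NP4 and at 96.8, 32.1, 27.8 and 40.4 FPKM in P1 to P4. Fzr1, the coactivator that keeps the complex active during prophase arrest, was at 26.5, 37.9, 5.17 and 10.0 FPKM in NP1 to NP4 and at 24.8, 24.4, 2.16 and 17.7 FPKM in P1 to P4. On the deposited scale, Cdc20 was above Fzr1 in all 8 libraries. The gene models behind these values were 1868 bp for Cdc20 and 4488 bp for Fzr1. Their principal transcripts were not compared, so this order may depend on the gene model. The log2 ratio of Cdc20 to Fzr1 was 1.51, 0.28, 1.57 and 0.68 in NP1 to NP4 and 1.92, 0.38, 3.19 and 1.14 in P1 to P4. The means, 1.01 ± 0.63 in NP and 1.66 ± 1.20 in P (SD, n = 4), differed by 0.65 (exact permutation test over 70 assignments, 2-sided, p = 0.40, and 0.686 after adjustment over the 2 ratios). With 4 libraries in each dataset the smallest p of this test is 0.029.

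Among the inhibitors, Bub1b, which encodes the checkpoint protein BubR1 and whose 3′ end holds the element printed above, was the most abundant, at 1102, 704, 867 and 1058 FPKM in NP1 to NP4 and at 2721, 983, 2073 and 947 FPKM in P1 to P4. Its log2 fold change was 0.72 (SE 0.54, limma adjusted p = 0.644), with P1 and P3 above all NP libraries. Fbxo5 and Fbxo43, which encode Emi1 and the meiotic inhibitor Emi2, had log2 fold changes of −1.05 (SE 0.75) and −0.61 (SE 0.86). Mad2l1 and Bub3, both of the spindle checkpoint, were at −0.41 (SE 0.98) and −0.17 (SE 0.69). Of the 4 genes that hold the element letters in the searched window, Bub1b was above 0 and Fbxo5, Mad2l1 and Gmnn were below it. Relative to the median of −0.39 of all genes tested, Bub1b was at 1.11, Gmnn at 0.29, Mad2l1 at −0.02 and Fbxo5 at −0.66.

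Of the substrates, the cyclin B1 mRNA Ccnb1 was at 1287 ± 306 FPKM in NP and 840 ± 388 FPKM in P (SD, n = 4), with a log2 fold change of −0.70 (SE 0.53, limma adjusted p = 0.644). Pttg1, which encodes securin, was the highest of the 17, at 1.67 (SE 1.12, limma adjusted p = 0.618). It was listed at 62.8, 12.3, 47.1 and 673 FPKM in NP1 to NP4 and at 212, 123, 67.1 and 1580.5 FPKM in P1 to P4, so that replicate 4 was far above the others in both datasets. P1, P2 and P3 were above NP1, NP2 and NP3. Ccnb2 was at −1.39 (SE 1.16), Ccna2 at −0.14 (SE 0.68) and Gmnn at −0.10 (SE 1.25). The small subunits Anapc13, Anapc16 and Cdc26 had log2 fold changes of −1.05 (SE 1.54), 0.75 (SE 0.56) and −0.39 (SE 0.88), and Anapc13 was at 134 FPKM in P4 while it was at 2.10 FPKM in P1 and at 0 in P2 and P3. In P4, then, both Anapc13 and Anapc11 were far above the other 3 P libraries.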

How the data were processed

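The 8 libraries were assigned to NP or P by their titles. The 10 members and all gene lists were chosen with earlier results of these data known, and any listed gene could be named. Per the labels and the study's methods, reads were trimmed (Trim Galore 0.4.1) and aligned with HISAT2 2.0.5 against GRCm38, and the authors computed FPKM values per gene in Seqmonk. The deposited FPKM values were used on their linear scale. The authors' pooled means, ratios and DESeq2 comparison were not used.

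P was compared with NP in limma 3.58.1 (R 4.3.3, lmFit, eBayes with trend, 2-sided) on log2(FPKM + 1). The 14292 genes averaging more than 0.1 FPKM in NP or P entered, and p-values were adjusted over all of them by Benjamini-Hochberg (threshold 0.1). A fold change on this scale understates that of low genes. The fit was tested on simulated data. Ratios were compared by exact permutation tests in scipy 1.17.1 (Python 3.11.15). Counting units (reads or fragments, which the sources used here do not settle) were recovered from the FPKM steps and the GENCODE M21 merged exon length, or, for Anapc4, Anapc5 and Anapc10, a searched length. With the annotated lengths, only 52.3 to 54.9% of the values examined per library came close to a whole number of units. Amplified reads without molecular identifiers are not independent molecules. Gene coordinates are those of the deposited table, and sequences and overlaps were read from GENCODE on the same build. Alternatives were 2 other scalings, a pseudocount of 0.1, no filter or a filter of 1 FPKM, a replicate block and leaving out each library. Leaving out Cdc23 was chosen after seeing the data.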

Additional observations from a re-analysis of the deposited data

Results flagged for a closer look

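Of 58 sets of 4 libraries examined (27 genes and 2 ratios in NP and in P), 11 held a library that stood far from the other 3, its gap to the nearest, as a share of the whole range, being above the 95% critical value of Dixon's test. Chance flags about 1 in 20 sets of normally distributed values, which FPKM on a linear scale need not be. On log2(FPKM + 1), 1 of the 5 core subunit values named next was still beyond that limit, Cdc23 in NP4, and Cdc16 in NP4 was beyond it on that scale alone. Among the core subunits, these were Anapc4 in NP4 (187 FPKM against 30.1 to 50.0 in the others), Cdc27 in NP3 (41.3 FPKM against 8.75 to 12.4), Anapc11 in P4 (338 FPKM against 0.4004 to 32.2), and Cdc23 both in NP4 (2.22 FPKM against 11.7 to 12.4) and in P1 (60.0 FPKM against 4.83 to 13.9).

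Among the other pathway genes, they were Anapc13 in P4 (134 FPKM against 0 to 2.10), Cdc26 in NP4 (83.7 FPKM against 6.98 to 12.6), Ccnb2 in P1 (535 FPKM against 3.07 to 23.0), Gmnn in P1 (87.4 FPKM against 0 to 13.7) and Pttg1 in both NP4 (673 FPKM against 12.3 to 62.8) and P4 (1580.5 FPKM against 67.1 to 212). All 11 fell in NP3, NP4, P1 or P4, with 4 in NP4, 3 in P1 and 3 in P4. The sets are not independent, since libraries that differ in many genes are flagged in several of them.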

How the results depend on the processing

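Under all 14 alternatives, 0 core subunits and 0 of the 17 other pathway genes passed the adjusted threshold of limma, and the adjusted p of a core subunit was between 0.417 and 1. Of 140 recomputed fold changes of single subunits, 127 kept their direction. The changes of filter and the replicate block leave each fold change as it was by construction. They are counted in both numbers and say nothing on how stable the directions are. With each library scaled to one median FPKM, the median log2 fold change of the core subunits was 0.78 in place of −0.07 (that of all genes −0.026 in place of −0.39, a difference of 0.81 in place of 0.32), 1 of them had an unadjusted p below 0.05, and the log2 fold changes of Anapc4, Anapc5, Anapc7 and Anapc11 turned to 0.60, 0.72, 0.31 and 0.017. After quantile normalization Anapc4 turned to 0.026, and with a pseudocount of 0.1 Anapc2 turned to −0.10.

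Leaving out single libraries gave between 0 and 1 core subunits with an unadjusted p below 0.05 (1 without NP4) and between 0 and 1 whose datasets did not overlap (1 each without NP1, NP4 or P2). Of all genes, 11.8% had such a p without NP4, and 8.35%, 10.3% and 8.49% had all NP above all P libraries without NP1, NP4 and P2, so 1 of 10 is near these shares. The log2 fold changes that changed sign ranged from −0.59 to 0.28 for Anapc4 (positive without NP4), from −0.49 to 0.060 for Anapc5 (positive without P3), from −0.14 to 0.99 for Cdc23 (negative without P1), from −0.84 to 1.11 for Anapc2 (negative without NP4, P1 or P2) and from −2.20 to 0.44 for Anapc11 (positive without P3). The log2 ratio of Anapc11 to Anapc2 ranged from −2.38 to 0.33 (positive without P2). The cause of these changes was not tested.

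Same-numbered libraries deviated together with correlations of 0.139, 0.0518, 0.251 and 0.155 over 11374 genes, and others with −0.135 to 0.136. Each P library correlated best with the NP library of its own number, P1 only narrowly (0.139 against 0.136 with NP2). Seen from NP, NP2 correlated best with P1. The labels do not tie equal numbers to the same gradient, and 1 correlation was under 0.1, so the numbers were not taken as pairs. If equal numbers do mark the same gradient, the main tests leave that pairing out. With the replicate number as a block, limma called 0 core subunits and 0 had an unadjusted p below 0.05, with adjusted p = 0.522 for Anapc1 (P above NP in 4 of 4 numbers) and 0.659 for Anapc7 (in 0 of 4). The log2 ratio of Cdc20 to Fzr1 was higher in P in 4 of 4 numbers (exact sign-flip permutation p = 0.125, the smallest that 4 pairs allow). Intervals of about 1 to 3 log2 units on either side limit what these libraries could show.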
